A study of Mus musculus with 12 samples.

Results

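The antioxidant and glutathione genes were examined in mature white adipocytes from the epididymal fat pads of male C57/BL6J mice, which were lean; the adipocytes were recovered by flotation after digestion. They were 55 of the 20295 genes in the count table: the glutathione transferases (Gst and Mgst), glutathione peroxidases (Gpx), peroxiredoxins (Prdx), thioredoxins (Txn), thioredoxin reductases (Txnrd) and superoxide dismutases (Sod), chosen by symbol, and the single genes Hmox1, Nqo1, Gclc, Gclm, Gsr, Cat, Srxn1 and Nfe2l2. The rule used symbols alone, but the genes were chosen with earlier results of these data known. The cells were embedded in a hydrogel at 50000 cells per well, kept for 2 days and divided into 4 groups of 3 libraries. The DMSO group received vehicle. The ISO group received isoproterenol, an agonist of the β-adrenergic receptors, for 3 h. The Lip group was given lipase inhibitors that block ATGL and HSL, lipases that release fatty acids from stored fat, and the Lip+ISO group received the inhibitors and then isoproterenol for 3 h. Mouse age was not given in the sources used here, and flotation was the only step that separated adipocytes from other cells.

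Cells remove superoxide with superoxide dismutases and hydrogen peroxide with catalase, glutathione peroxidases and peroxiredoxins. The reducing power comes from glutathione, whose synthesis starts with glutamate-cysteine ligase (the catalytic subunit Gclc and the modifier subunit Gclm), and from thioredoxin, which thioredoxin reductases keep reduced with NADPH. Nfe2l2 encodes NRF2, a transcription factor that pairs with small MAF proteins on antioxidant response elements and is kept low by KEAP1. Gclc, Gclm, Srxn1, Txnrd1, Nqo1 and Hmox1 are among its best known targets.

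For ISO against DMSO, 10.4% of the tested genes of the family were called higher and 2.08% lower, beside 12.3% and 13.9% of all tested genes. With the lipases inhibited the shares were 12.5% and 2.08%, beside 11.5% and 15.8%. In this fit, which had no replicate block, calls on the higher side were thus about as frequent as among all genes. With the block, 14 of the 48 tested genes of the family were called higher and 5 lower for ISO against DMSO, beside 18.8% and 19.6% of all genes. With the lipases inhibited the blocked fit called 13 higher and 1 lower, beside 15.5% and 20.1%. Within the family, some genes passed and others did not. Nfe2l2, Gclc, Srxn1 and Txnrd1 rose with isoproterenol whether or not the lipases were inhibited, while Sod1, Sod2, Sod3, Cat, Gsr and Gclm passed the test in none of the comparisons in the fit without a replicate block. Hmox1 rose in the ISO group. Under isoproterenol it was lower with the inhibitors than without. That call was kept with the replicate block but lost in 12 of the 15 fits that left out libraries, and the difference between the Hmox1 responses did not pass. Prdx2 rose with isoproterenol where the lipases were inhibited and was higher by less, without passing the test, where they were not. The difference between both Prdx2 responses passed, also with the replicate block, but was lost in 14 of the 15 fits that left out libraries. No gene of the family passed the test with the inhibitors alone. The Lip+ISO replicate 1 library stood apart from the other libraries for many of these genes, and the main calls and medians of the comparisons with Lip+ISO are given with and without it.

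Of the 55 genes, 48 had enough counts to be tested among 13543 genes. Library totals ran from 22632220 to 43707557 counts, and the 55 genes took 1.62% to 2.63% of them, most in Lip+ISO replicate 1. The untested genes were Gpx2, Gpx5, Gpx6, Gsta1, Gsta2, Gstm3 and Prdx6b, whose highest count in any library was 22. The adipocyte markers Adipoq, Plin1, Fabp4, Cidec and Lipe together held 19852 to 31895 counts per 1000000 counts of the library (CPM, with library totals scaled by edgeR's TMM factors), against 45.2 to 133 for 6 macrophage markers and 388 to 1046 for 5 fibroblast markers. Markers of epididymal epithelium, T and B cells and erythroid cells summed to less than 1 CPM in each library. The hemoglobin genes Hbb-b1 and Hba-a1 were at 0 in each library, and whether their reads were left unassigned between close copies was not tested. In bulk RNA, fewer cells of a type and less RNA per cell cannot be told apart.

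Per kilobase of counted length, levels in the DMSO group spanned more than 3 orders of magnitude. Gpx3, a secreted glutathione peroxidase, was highest at 2160.1 ± 456 CPM per kilobase (mean ± SD, n = 3), followed by the microsomal transferase Mgst1 at 1485 ± 128, the heme oxygenase Hmox1 at 1236 ± 175, the cytosolic peroxidase Gpx1 at 1199.8 ± 173 and catalase at 906 ± 129. Mgst1, Hmox1 and Gpx1 overlapped one another within their SDs, so their order is not resolved. Gclc stood at place 34 of the tested genes with 28.4 ± 2.51, and Gclm at place 15 with 171 ± 35.4 on the same scale. Gstm7 was the lowest of the tested genes, at 0.307 ± 0.0491.

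**Figure D1:**
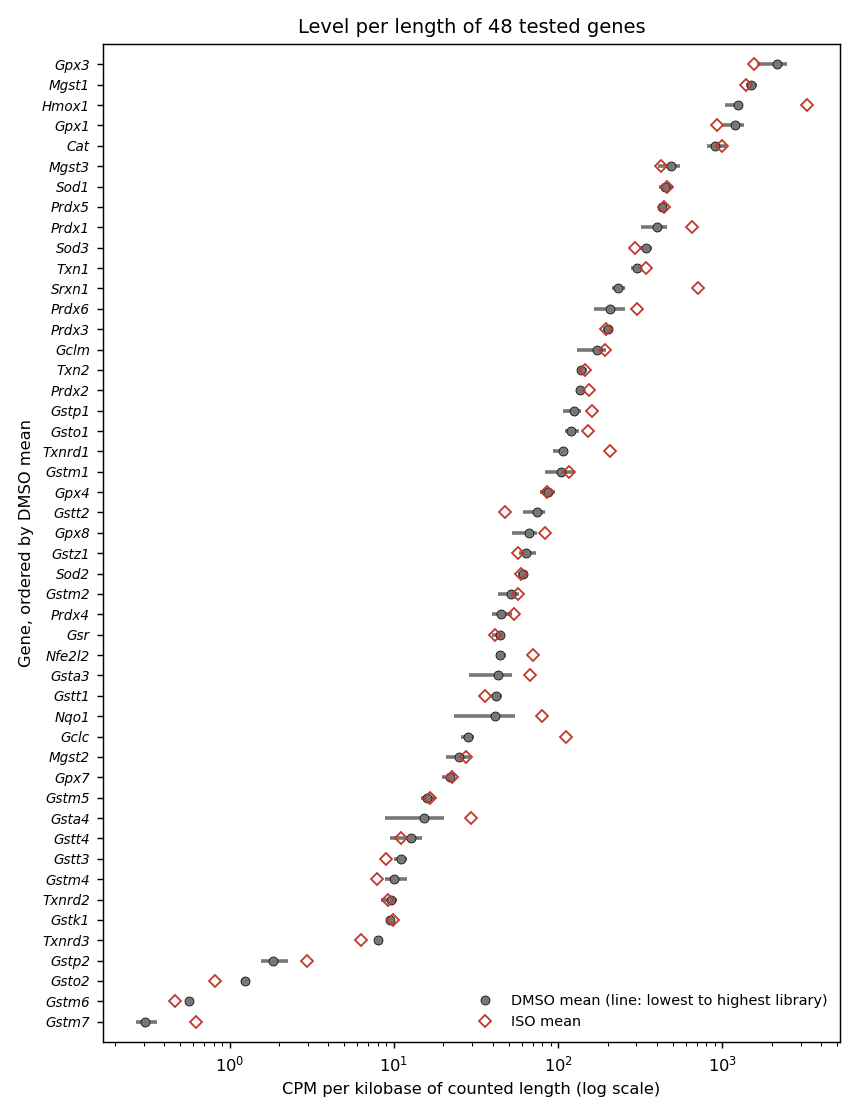
Level of the 48 tested genes in CPM per kilobase of counted length (log axis), ordered by the DMSO mean (filled circles, with a line from the lowest to the highest of 3 libraries); open diamonds are ISO means. The diamonds of Hmox1, Srxn1, Txnrd1 and Gclc lie well to the right of the DMSO lines, while those of Cat, Sod1, Gclm and Gsr lie on or next to them.

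Promoter sequence was available in RefSeq (GRCm38.p6) for 47 of the 55 genes, as windows of 300 bases that run from 250 before to 50 after each transcript start. Both forms in use of the antioxidant response element core, TGACNNNGC and TGAGNNNGC, were searched on both strands, and the cyclic AMP response element TGACGTCA, to which the transcription factor CREB binds, was searched beside them; the letters of TGACGTCA fit neither core form on either strand. Either core form was found in 17 of the 47 genes, or 36.2%, against 30.8% of all 27025 genes with a window. TGACNNNGC alone was found in 10 of the 47 (21.3%, against 14% of all genes), TGAGNNNGC in 10 (21.3% against 19.8%), and TGACGTCA in 0, against 2.03% of all genes. Shown are the 250 bases before a start of Srxn1, Txnrd1 and Nfe2l2, which rose with isoproterenol, and of Gclm, which did not pass. They are written 5′ to 3′ on the gene's strand with matches to either core form in capitals. For Txnrd1 the only window with a match is shown.
Srxn1 (chr2:152105274-152105523, plus strand): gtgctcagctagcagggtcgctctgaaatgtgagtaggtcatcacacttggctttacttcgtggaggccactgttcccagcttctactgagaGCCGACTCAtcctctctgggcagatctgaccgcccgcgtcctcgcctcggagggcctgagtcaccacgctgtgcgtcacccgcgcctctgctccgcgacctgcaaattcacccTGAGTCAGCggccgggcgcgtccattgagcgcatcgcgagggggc
Txnrd1 (chr10:82858956-82859205, plus strand): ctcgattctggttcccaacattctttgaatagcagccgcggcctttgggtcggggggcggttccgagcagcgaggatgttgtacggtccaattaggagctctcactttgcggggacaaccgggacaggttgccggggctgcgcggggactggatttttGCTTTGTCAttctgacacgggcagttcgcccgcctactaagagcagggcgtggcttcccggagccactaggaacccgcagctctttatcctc
Nfe2l2 (chr2:75704664-75704913, minus strand): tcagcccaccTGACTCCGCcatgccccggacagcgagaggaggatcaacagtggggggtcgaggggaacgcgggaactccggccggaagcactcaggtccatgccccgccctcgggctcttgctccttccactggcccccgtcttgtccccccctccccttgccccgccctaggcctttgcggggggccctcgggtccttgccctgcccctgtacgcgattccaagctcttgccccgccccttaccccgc
Gclm (chr3:122245307-122245556, plus strand): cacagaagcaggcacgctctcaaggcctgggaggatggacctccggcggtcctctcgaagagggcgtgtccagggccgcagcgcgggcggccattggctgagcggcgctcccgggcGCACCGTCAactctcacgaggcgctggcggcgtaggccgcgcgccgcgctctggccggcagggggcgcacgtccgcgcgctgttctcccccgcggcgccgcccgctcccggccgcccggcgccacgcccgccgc

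In Srxn1 the matches began at positions -158 and -45 from the start, the second reading TGAGTCAGC, and a further one at position 29 lay after it. Txnrd1 had 1 match at position -92 in this window and none in its other 2 windows, Nfe2l2 had 1 at -240 and Gclm 1 at -134. The Txnrd1 window furthest upstream (chr10:82833701-82834000), where the counted transcript starts, was among those without a match. A match is a string of letters and does not show a bound site, and Gclm, with a match, did not pass the test of isoproterenol while Nfe2l2, Srxn1 and Txnrd1 did.

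The first comparison asked what isoproterenol did with the lipases active. Against DMSO, 5 of the 48 tested genes rose and 1 fell (edgeR quasi-likelihood test, Benjamini-Hochberg adjusted p at or below 0.05), beside 12.3% of all tested genes called higher and 13.9% called lower. Of the 48 log2 fold changes 29 were positive, and their median was 0.07, against 0.00 for all genes. Leaving out libraries, 25 to 32 were positive and the median ranged from 0.0095 (without ISO replicate 1) to 0.17 (without ISO replicate 3). The libraries of both groups did not overlap for 15 genes that were higher and 3 that were lower in ISO, beside 20.7% and 22.6% of all genes. A minimum log2 fold change of 1 left 3 genes higher and 0 lower, beside 5.68% and 1.8% of all genes.

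Nfe2l2, the gene of NRF2 itself (mm9, chr2:75513576-75542698, minus strand), held 104, 119 and 104 CPM in the DMSO libraries and 187, 174 and 159.7 CPM in the ISO libraries. In the Lip libraries it held 108, 115 and 101 CPM, and in the Lip+ISO libraries 250.4, 237 and 211 CPM. All isoproterenol libraries lay above all others, and all Lip+ISO libraries above all ISO libraries. Its log2 fold change was 0.67 ± 0.09 (SE) for ISO against DMSO (edgeR, adjusted p = 2.1e-04).

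Gclc, the catalytic subunit of the first step of glutathione synthesis (mm9, chr9:77602342-77642296, plus strand), had the largest fold change of the family. It was at 98.1, 106 and 88.5 CPM in DMSO and at 387, 406 and 363 CPM in ISO. The groups were far apart, with the lowest ISO library above 3 times the highest DMSO library. The log2 fold change was 1.98 ± 0.13 (edgeR, adjusted p = 6.2e-07). Its partner Gclm, the modifier subunit, was at 387, 407 and 271 CPM in DMSO and 410.4, 449 and 334 CPM in ISO, and the groups overlapped (log2 fold change 0.16 ± 0.31, edgeR adjusted p = 0.72). The ratio of Gclc to Gclm, both per counted length, ran from 0.153 to 0.197 in DMSO and from 0.546 to 0.656 in ISO, from 0.168 to 0.258 in Lip and from 0.678 to 1.33 in Lip+ISO; this ratio was chosen after its values were seen and has no test.

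Srxn1, sulfiredoxin, which repairs overoxidized peroxiredoxins (mm9, chr2:151931260-151937112, plus strand), was at 721, 622 and 599 CPM in DMSO and at 2036, 1982 and 1952 CPM in ISO. The ISO libraries were close together and all well above DMSO, with a log2 fold change of 1.62 ± 0.18 (edgeR, adjusted p = 3.3e-05). Txnrd1, the cytosolic thioredoxin reductase (mm9, chr10:82296696-82360469, plus strand), was at 412, 417 and 340.1 CPM in DMSO and at 734, 809.7 and 699 CPM in ISO. These groups did not overlap either, and the log2 fold change was 0.94 ± 0.24 (edgeR, adjusted p = 0.0116). Txnrd1 shares 1304 bases with Eid3 on the same strand, so reads of these genes could have been counted for either. Without DMSO replicate 3, or without replicate 2 of every group, Txnrd1 lost the call (adjusted p up to 0.0979).

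Hmox1, heme oxygenase 1, which opens the heme ring (mm9, chr8:77617517-77624492, plus strand), was at 2100.1, 2116 and 1630.2 CPM in DMSO. In ISO it was at 5076, 5019.6 and 5364 CPM, all of them above every library of the other groups. The log2 fold change was 1.40 ± 0.28 (edgeR, adjusted p = 0.00317). Macrophages can hold much of this gene, and the macrophage markers moved with it: 4 of 6 were called higher, and their sum ran from 45.2 to 58.8 CPM in DMSO and from 89.2 to 133 CPM in ISO. Of the 5 fibroblast markers 4 were called higher, with a sum of 388 to 676 CPM in DMSO and 784 to 1046 CPM in ISO, while 0 of 5 adipocyte markers passed the test. The endothelial sum ran from 84.8 to 159 CPM in DMSO and from 152 to 299 CPM in ISO with 0 of 5 called, the mesothelial sum from 21.0 to 46.8 CPM and from 55.4 to 65.9 CPM with 1 of 5 called higher, and the smooth muscle sum from 183 to 296 CPM and from 154 to 259 CPM with 0 of 4 called. The part of other cell types in the change of Hmox1, or of any gene that rose here, was not tested.

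**Figure D2:**
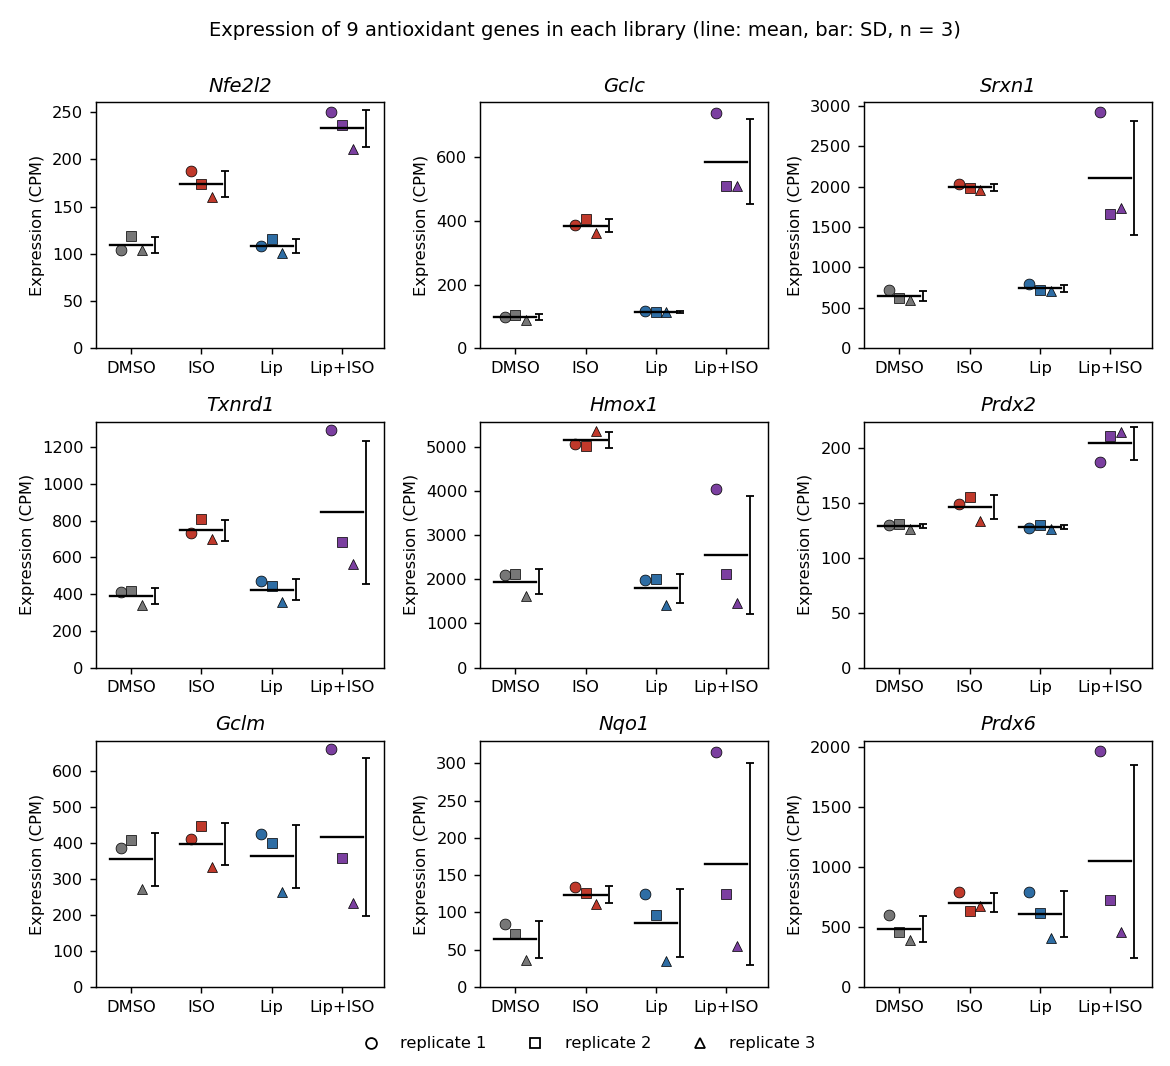
Expression of 9 genes in CPM (TMM-scaled, axes from 0) in each of 12 libraries; marker shape gives the replicate number, horizontal lines the group mean and side bars the SD (n = 3). Nfe2l2, Gclc, Srxn1 and Txnrd1 were higher in both isoproterenol groups, Hmox1 was highest in ISO, Prdx2 was highest in Lip+ISO, and Lip+ISO replicate 1 lies far above its group for Txnrd1, Gclm, Nqo1 and Prdx6.

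Nqo1, a quinone reductase and a classical NRF2 target, was at 84.4, 71.5 and 35.9 CPM in DMSO and at 134, 126 and 111 CPM in ISO. The groups did not overlap, but the DMSO libraries were spread over more than 2 times, and the log2 fold change of 0.95 ± 0.55 did not pass the test (edgeR, adjusted p = 0.218). Cat, catalase, and Gsr, which returns oxidized glutathione to its reduced form, had log2 fold changes of 0.13 ± 0.20 and -0.10 ± 0.19 with overlapping groups (edgeR, adjusted p = 0.65 and 0.73).

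Gstt2, a theta-class glutathione transferase, was the gene that fell. It was at 108, 84.2 and 113 CPM in DMSO and at 81.0, 58.2 and 55.7 CPM in ISO, and the ranges came within 4 CPM of each other without overlapping. The log2 fold change was -0.65 ± 0.17 (edgeR, adjusted p = 0.0120), and the call was lost in 4 of the 15 fits that left out libraries (without DMSO replicate 3, ISO replicate 2 or ISO replicate 3, or without replicate 3 of every group; adjusted p up to 0.117). Gstt2 is a member of a gene family whose close copies can share reads, as are the Gsta, Gstm and Gstp genes.

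Libraries with the same replicate number deviated together, so the replicate number was also fitted as a block. With the block, 14 genes were called higher and 5 lower for ISO against DMSO, beside 18.8% and 19.6% of all genes, and all 6 calls of the unblocked fit were among them. The 9 added on the higher side were Nqo1 (log2 fold change 1.11, adjusted p = 0.0153), the peroxiredoxins Prdx1 (0.75, 0.0162) and Prdx4 (0.28, 0.00546), the transferases Gsta3 (0.70, 0.0408), Gsta4 (1.00, 0.0134), Gstp1 (0.37, 0.0261) and Gsto1 (0.35, 0.0181), the endoplasmic reticulum peroxidase Gpx8 (0.34, 0.0230) and thioredoxin, Txn1 (0.19, 0.0360). Those added on the lower side were Gpx1 (-0.37, 0.0208), Gpx3 (-0.46, 0.0469), Gstm4 (-0.34, 0.0104) and Txnrd3 (-0.34, 0.0341). Gpx3, the highest of the family per length, was at 3619, 2481 and 3731 CPM in DMSO and at 2944, 2001 and 2128 CPM in ISO, lower in each pair of the same replicate number although the groups overlapped.

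Among the tested members of each class, the unblocked fit called none of 18 Gst genes higher for ISO against DMSO and 1 lower, none of 3 Mgst and 5 Gpx genes in either direction, none of 6 peroxiredoxins, 2 thioredoxins and 3 dismutases, and 1 of 3 thioredoxin reductases higher. The smallest adjusted p (edgeR) was 0.0738 among the Gpx genes, for Gpx1, 0.102 among the peroxiredoxins, for Prdx2, and 0.224 among the dismutases, for the extracellular Sod3. The mitochondrial dismutase Sod2 stayed between 216 and 249 CPM in DMSO and between 218 and 239 CPM in ISO, and the cytosolic Sod1 differed by 0.05 ± 0.10 on the log2 scale. The groups overlapped for all 3 dismutases. Over all tested genes 12.3% were called higher and 13.9% lower, so counts of 0 in classes this small say nothing particular about a class. With the block, members of several of these classes were called, as given above.

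The second comparison applied isoproterenol with the lipases inhibited (Lip+ISO against Lip). Here 6 genes rose and 1 fell, beside 11.5% of all tested genes called higher and 15.8% called lower, and 33 of 48 log2 fold changes were positive with a median of 0.17, against -0.00 for all genes. Without Lip+ISO replicate 1, 28 were positive and the median was 0.061, and over the other fits that left out libraries it ranged from 0.15 to 0.27 (without Lip replicate 1). The groups did not overlap for 9 genes on the higher and 2 on the lower side, beside 17.2% and 22% of all genes. Gclc, Nfe2l2, Srxn1 and Txnrd1 were called higher here as well as without inhibitors. Prdx2 and Txn2 passed the test here and did not pass for ISO against DMSO, and Hmox1 did not pass here. With the log2 fold change of at least 1, 3 genes remained higher and 0 lower, beside 4.19% and 3.16% of all genes. Of the cell type markers, 1 of 6 macrophage markers was called higher, with a sum of 46.6 to 54.4 CPM in Lip and 55.1 to 100.2 CPM in Lip+ISO, and 1 of 5 mesothelial markers, with a sum of 12.8 to 54.7 CPM and 37.3 to 46.2 CPM. On the lower side were 1 of 5 adipocyte markers (23482 to 26947 CPM and 19852 to 26294 CPM) and 1 of 4 smooth muscle markers (243 to 331 CPM and 116 to 189 CPM). None of the 5 endothelial (44.8 to 146 CPM and 63.1 to 184 CPM) and 5 fibroblast markers (539 to 552 CPM and 472 to 631 CPM) was called, and the part of these cells in the changes was not tested.

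Gclc was at 118, 114 and 112 CPM in Lip and at 740.5, 511 and 509.8 CPM in Lip+ISO. The Lip libraries lay together and far below the Lip+ISO libraries, and the log2 fold change was 2.35 ± 0.14 (edgeR, adjusted p = 7.1e-08). For Nfe2l2 it was 1.11 ± 0.09 (edgeR, adjusted p = 2.1e-06). Srxn1 was at 794, 721 and 713 CPM in Lip and at 2924, 1665 and 1731 CPM in Lip+ISO, with a log2 fold change of 1.50 ± 0.18 (edgeR, adjusted p = 3.7e-05). Txnrd1 was at 469, 446 and 359 CPM in Lip and at 1291, 683 and 565 CPM in Lip+ISO, with a log2 fold change of 1.00 ± 0.24 (edgeR, adjusted p = 0.00719). In Srxn1 and Txnrd1 the first Lip+ISO library was far above the other Lip+ISO libraries, and all 3 were above Lip. Without that library the log2 fold changes were 2.15 for Gclc, 1.05 for Nfe2l2, 1.19 for Srxn1 and 0.55 for Txnrd1, and all 4 calls remained (edgeR, largest adjusted p = 0.00977).

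Prdx2, a cytosolic peroxiredoxin that reduces hydrogen peroxide with electrons from thioredoxin (mm9, chr8:87493547-87498212, plus strand), was at 129, 130.4 and 126 CPM in DMSO and at 149, 155 and 134 CPM in ISO. It was at 127, 129.7 and 126 CPM in Lip and at 187, 210.2 and 215 CPM in Lip+ISO. The DMSO and Lip libraries were within 5 CPM of one another, the ISO libraries slightly above, and the Lip+ISO libraries above all others, with Lip+ISO replicate 1 the lowest of its group. The log2 fold change of Lip+ISO against Lip was 0.68 ± 0.08 (edgeR, adjusted p = 2.5e-05), against 0.18 ± 0.08 for ISO against DMSO (edgeR, adjusted p = 0.102).

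Txn2, the mitochondrial thioredoxin, was at 171, 171 and 179 CPM in Lip and at 194, 198 and 231 CPM in Lip+ISO, which did not overlap. Its log2 fold change of 0.26 ± 0.08 (edgeR, adjusted p = 0.0361) lost the call in 10 of the 15 fits that left out libraries (adjusted p up to 0.185; those without DMSO replicate 1 or 2, ISO replicate 2, any 1 Lip library, Lip+ISO replicate 3 or any replicate number), with library totals alone (0.173), with no filter on low counts (0.0849) and with the compared groups alone (0.0796). Txnrd3, a thioredoxin reductase with an added glutaredoxin domain, was the gene that fell: it was at 23.7, 23.0 and 22.0 CPM in Lip and at 18.8, 17.0 and 12.4 CPM in Lip+ISO (log2 fold change -0.51 ± 0.13, edgeR adjusted p = 0.00890). The groups did not overlap, and the call was lost without replicate 2 of every group (adjusted p = 0.0893) and with the compared groups alone (0.0513). For ISO against DMSO the log2 fold change of Txnrd3 was -0.34 ± 0.13 (edgeR, adjusted p = 0.0660).

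Hmox1 was at 1978, 1999 and 1407 CPM in Lip and at 4057, 2126 and 1468 CPM in Lip+ISO. The groups overlapped, with 1 Lip+ISO library near the ISO level and the other two near the Lip level, and the log2 fold change of 0.51 ± 0.28 did not pass the test (edgeR, adjusted p = 0.216). Without Lip+ISO replicate 1 it was -0.00, and without Lip+ISO replicate 3 it was 0.80 and passed (adjusted p = 0.0254). Nqo1 was at 124, 97.0 and 35.5 CPM in Lip and at 316, 124 and 54.8 CPM in Lip+ISO, with groups that overlapped (log2 fold change 0.95 ± 0.54, edgeR adjusted p = 0.236), and without Lip+ISO replicate 1 the change was 0.07. Gclm, Gsr and Cat had log2 fold changes of 0.20, -0.02 and 0.15, none of which passed the test (edgeR, adjusted p = 0.70, 0.95 and 0.63). Gsr turned into a call without Lip+ISO replicate 1, at -0.37 (edgeR, adjusted p = 0.0376). It was not called in 14 of the 15 fits that left out libraries, among them the fit without replicate 1 of every group.

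With the replicate block, 13 genes were called higher and 1 lower in this comparison, beside 15.5% and 20.1% of all genes, with all 7 calls of the unblocked fit among them. The added genes were Prdx1, Prdx5, Txn1, Gsto1, Gstm1, Gstm2 and Gpx8, with adjusted p from 0.00359 (Txn1) to 0.0364 (Gpx8). Leaving out Lip+ISO replicate 3 raised the unblocked count on the higher side to 14, while the other fits that left out libraries gave 5 or 6.

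**Figure D3:**
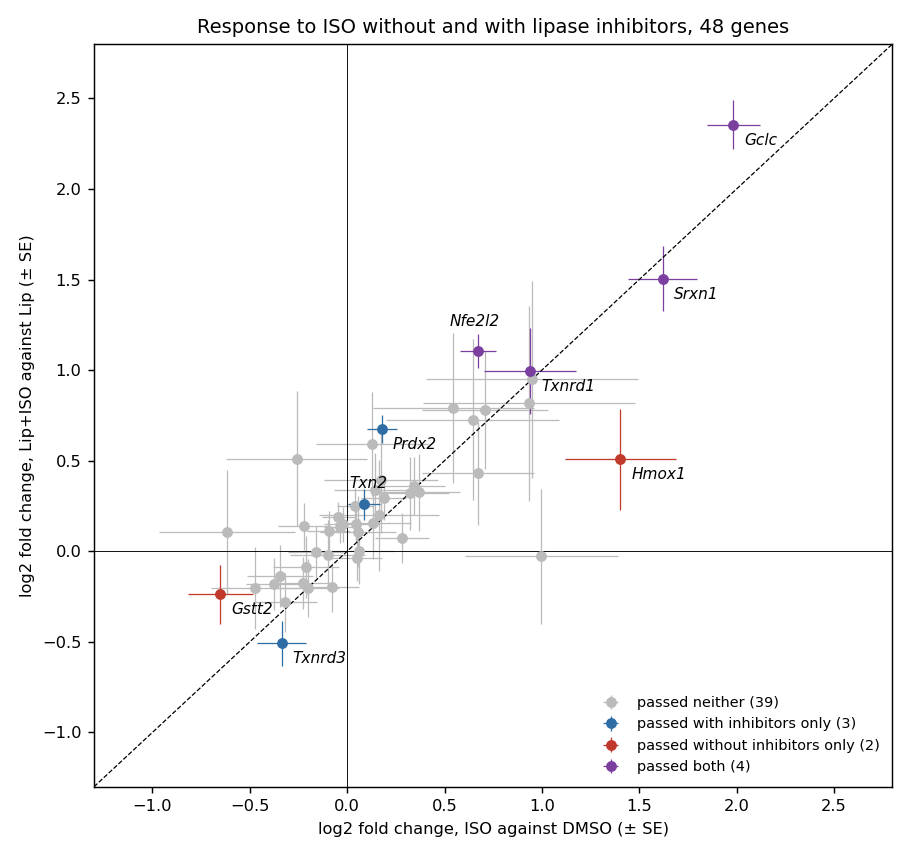
Log2 fold change of the 48 tested genes with isoproterenol without lipase inhibitors (horizontal axis) and with them (vertical axis), with SE bars; colours mark the genes that passed the test and the dashed line marks equal change. Gclc, Srxn1, Nfe2l2 and Txnrd1 passed in both, Hmox1 lies far below the line, and Prdx2 and Nfe2l2 lie above it.

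The third comparison tested the lipase inhibitors without isoproterenol. None of the 48 genes passed for Lip against DMSO, beside 0.00738% of all genes called higher and 0.0443% called lower. By edgeR 1 of the 48 genes had an unadjusted p under 0.05, Gstm7, beside 582 of all 13543 tested genes. DESeq2 also called 0 genes, as did the fit with the block. The mu-class transferase Gstm7 was at 0.474, 0.378 and 0.352 CPM in DMSO and at 0.687, 0.740 and 0.941 CPM in Lip, a level of few reads, with a log2 fold change of 0.96 ± 0.39 (edgeR, adjusted p = 0.985). The libraries did not overlap for 2 genes on the higher side and 1 on the lower, beside 5.19% and 5.21% of all genes. With the minimum log2 fold change of 1 the count was likewise 0, beside 0% higher and 0.0222% lower of all genes. The single genes had log2 fold changes between -0.12 for Hmox1 and 0.42 for Nqo1. Gclc was at 112 to 118 CPM in Lip and 88.5 to 106 CPM in DMSO, which did not overlap, with a log2 fold change of 0.24 ± 0.13 that did not pass (edgeR, adjusted p = 1.00). Srxn1 was at 0.20 ± 0.17, Gsr at 0.09 ± 0.19, Gclm at 0.03 ± 0.31, Nfe2l2 at -0.01 ± 0.09 and Cat at -0.04 ± 0.20.

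The fourth comparison set Lip+ISO against ISO, and so asked what the inhibitors changed under isoproterenol. Prdx2, Gclc and Nfe2l2 were higher and Hmox1 was lower, 3 and 1 of 48 genes beside 4.36% and 4.59% of all tested genes, and 39 of 48 log2 fold changes were positive (median 0.17, all genes -0.01). Without Lip+ISO replicate 1, 23 were positive and the median was -0.02, the same as for all genes. Without replicate 1 of every group, 29 were positive with a median of 0.097, against -0.015 for all genes. Replicate 1 was high for these genes in every group, so leaving it out of Lip+ISO alone lowers that group against ISO. What the surplus of positive values rested on was not tested. A log2 fold change of at least 1 left 0 higher and 1 lower, beside 0.79% and 1.2% of all genes, and the libraries did not overlap for 5 genes on the higher and 1 on the lower side, beside 11.9% and 13.5%. Both comparisons with Lip+ISO share its 3 libraries, and both with ISO share the ISO libraries. Prdx2 was higher by 0.48 ± 0.08 (edgeR, adjusted p = 0.00168), Gclc by 0.61 ± 0.13 (adjusted p = 0.0107) and Nfe2l2 by 0.42 ± 0.09 (adjusted p = 0.0124) on the log2 scale, and the groups of libraries given above did not overlap for any of them. The call of Prdx2 was lost without replicate 2 or replicate 3 of every group (edgeR, adjusted p = 0.0565 and 0.0568). That of Gclc was lost in these fits and without ISO replicate 3 (adjusted p up to 0.0731), and that of Nfe2l2 in these 3 and without replicate 1 of every group (adjusted p up to 0.15). With the compared groups alone Gclc and Nfe2l2 were also just short of the threshold (adjusted p = 0.0519 and 0.0517), and all 3 calls remained without Lip+ISO replicate 1.

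Hmox1 was lower by a log2 fold change of -1.01 ± 0.28 (edgeR, adjusted p = 0.0421), with each Lip+ISO library below each ISO library. The call was lost in 12 of the 15 fits that left out libraries (adjusted p up to 0.303), remaining only where Lip replicate 3, Lip+ISO replicate 1 or all libraries numbered 1 were dropped, and it was lost where the fit held the compared groups alone (0.104). Without Lip+ISO replicate 1, whose 4057 CPM lay closest to ISO, the change was -1.52 (adjusted p = 5.6e-04). Over all fits that left out libraries it ranged from -1.52 to -0.71. DESeq2, library totals alone, RLE size factors, no filter on low counts and the replicate block (edgeR, -1.12, adjusted p = 0.00445) kept the call. Of the cell type markers, 4 of 5 fibroblast markers were called lower, with a sum of 472 to 631 CPM in Lip+ISO against 784 to 1046 CPM in ISO, and the macrophage sum was 55.1 to 100.2 CPM against 89.2 to 133 CPM with 0 of 6 called. Of the adipocyte markers 1 of 5 was also called lower, with a sum of 19852 to 26294 CPM against 23329 to 30302 CPM. None of the endothelial (63.1 to 184 CPM against 152 to 299 CPM), mesothelial (37.3 to 46.2 CPM against 55.4 to 65.9 CPM) and smooth muscle markers (116 to 189 CPM against 154 to 259 CPM) was called. In Lip+ISO replicate 1 the macrophage sum was 100.2 CPM, the highest of its group, and the fibroblast sum was 472 CPM, the lowest of its group. The part of these cell types in the result was not tested.

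The other single genes did not pass in this comparison. The log2 fold change was 0.42 ± 0.54 for Nqo1, 0.17 ± 0.19 for Gsr, 0.08 ± 0.17 for Srxn1, 0.07 ± 0.31 for Gclm and -0.02 ± 0.20 for Cat (edgeR, adjusted p of 0.65 or above). With the replicate block 5 genes were higher and 2 lower, beside 8.48% and 10.8% of all genes. The added calls were the mitochondrial and peroxisomal Prdx5 (0.29, adjusted p = 0.00865) and Sod3 (0.39, 0.0369) on the higher side and the endoplasmic reticulum Prdx4 (-0.27, 0.0148) on the lower side.

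The difference between both responses to isoproterenol, with inhibitors minus without, passed the test for 1 gene of the family, Prdx2, beside 0.901% of all genes called higher and 0.724% called lower (0.406% and 0.34% with a log2 difference of at least 1, which 0 of the 48 reached). For Prdx2 it was 0.50 ± 0.11 on the log2 scale (edgeR, adjusted p = 0.0365). The call was lost in 14 of the 15 fits that left out libraries, remaining where Lip+ISO replicate 1 was left out (adjusted p = 0.0163). It was also lost with library totals alone (0.0855) and with no filter on low counts (0.0581). By DESeq2, with RLE size factors and with the replicate block (edgeR, adjusted p = 0.0120) it was kept, and over the fits that left out libraries the difference ranged from 0.41 to 0.58. The difference was 0.43 ± 0.13 for Nfe2l2 (adjusted p = 0.140), and it passed by DESeq2 (adjusted p = 0.0296) and with the replicate block (edgeR, adjusted p = 0.0214), where the count was 2 beside 3.15% of all genes on the higher side and 0 beside 3.48% on the lower side. For Gclc it was 0.37 ± 0.18 (adjusted p = 0.404), and for Hmox1 -0.90 ± 0.40 (adjusted p = 0.338), so that the responses of these genes are not shown to differ with the inhibitors. Without Lip+ISO replicate 1 the Hmox1 difference was -1.40 and passed (edgeR, adjusted p = 0.0149). The Hmox1 difference did not pass in 14 of the 15 fits that left out libraries, among them the fit without replicate 1 of every group. Srxn1 was at -0.12 ± 0.25, Gsr at 0.08 ± 0.27, Gclm at 0.03 ± 0.43, Cat at 0.02 ± 0.28 and Nqo1 at -0.00 ± 0.74.

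Lip+ISO replicate 1 exceeded both other Lip+ISO libraries by at least 1.5 times in 12 of the 48 genes, or 25%, against 5.93% of all tested genes, and no other library did so for any of the 48. The 12 genes were Gclm, Gsr, Gsta3, Gsta4, Gstm1, Hmox1, Mgst2, Nqo1, Prdx1, Prdx6, Srxn1 and Txnrd1. Prdx6, a peroxiredoxin that also acts on phospholipids, showed it most: it was at 1965, 725 and 454 CPM in Lip+ISO, against 795, 638 and 677 CPM in ISO. All of these but Hmox1 were higher there than in any other library of the series. The same library had the most genes with a count, 17079 against 15141 to 16368 in the other libraries. It had the lowest adipocyte marker sum, 19852 CPM, and the highest macrophage marker sum of its group. Its fibroblast (472 CPM), endothelial (63.1 CPM) and mesothelial (37.3 CPM) marker sums were the lowest of its group, and its smooth muscle sum (162 CPM) lay between the others. The part of these cells in its levels was not tested.

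Replicates with the number 1 were high for these genes in every group, not in Lip+ISO alone. The replicate 1 library was the highest of its group for 35 of 48 genes in DMSO, 36 in ISO, 28 in Lip and 30 in Lip+ISO (72.9%, 75%, 58.3% and 62.5%), against 33.1% to 35.4% of all tested genes. In all 4 groups replicate 1 lay above the group mean for 25 of the 48 genes, or 52.1%, beside 14.1% of all tested genes, and replicate 3 lay below it for 23, or 47.9%, beside 13.9%. Gclm, Nqo1, Prdx1, Prdx6, Gsta3 and Gsta4 in particular were lowest in replicate 3 of DMSO and of Lip. The numbers name separate experiments only as far as the pairing of the libraries shows it, and what differed between them was not tested.

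**Figure D4:**
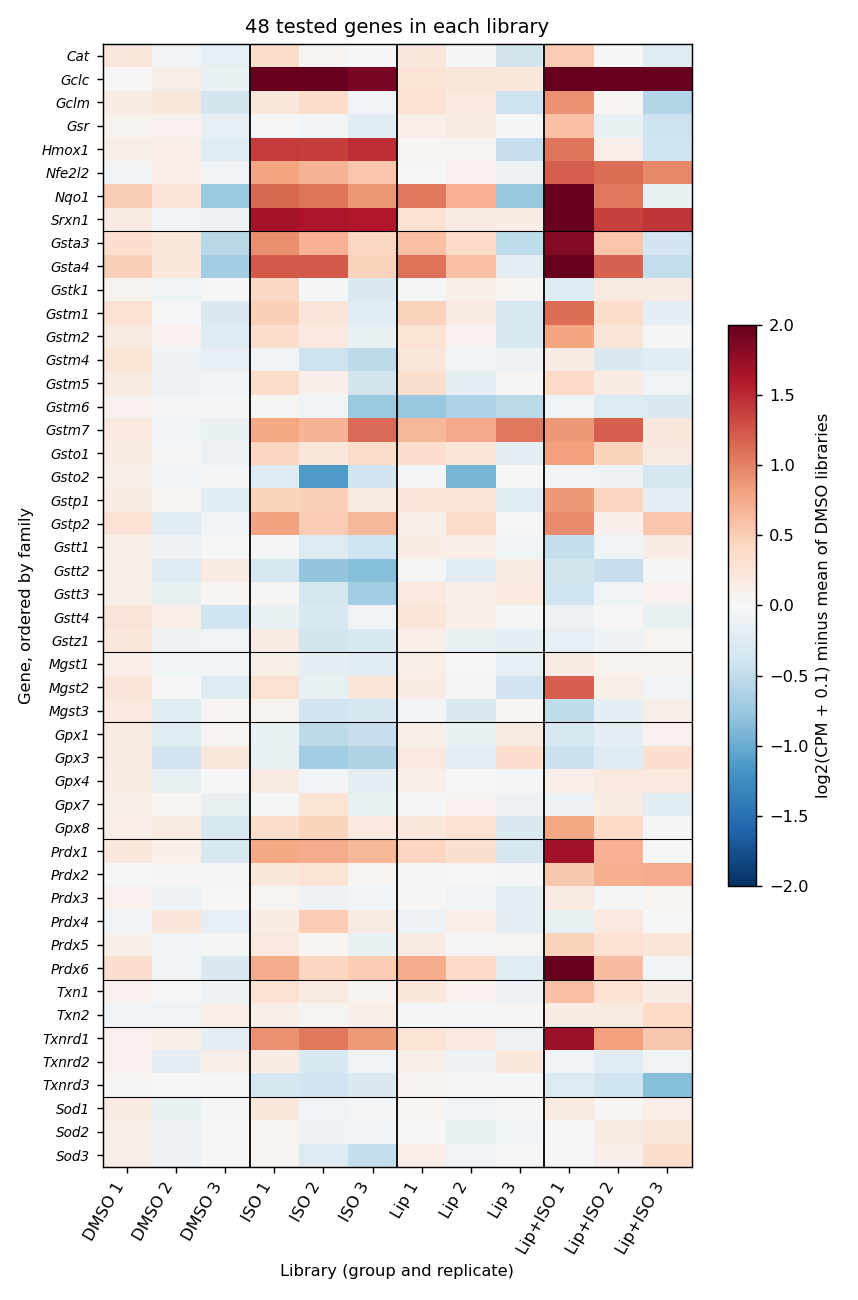
Heat map of the 48 tested genes (rows, by family) in the 12 libraries (columns), coloured by log2(CPM + 0.1) minus the mean of the DMSO libraries, from -2 (blue) to 2 (red). Gclc, Hmox1 and Srxn1 are red across ISO, Gclc and Srxn1 also across Lip+ISO, and the Lip+ISO replicate 1 column is redder than its neighbours for Nqo1, Gsta3, Gsta4, Prdx1, Prdx6 and Txnrd1.

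Genes that act with the family were read from lists set beside it, whose counts stand beside 12.3% of all tested genes called higher and 13.9% lower without inhibitors, 11.5% and 15.8% with them, and 4.36% and 4.59% for Lip+ISO against ISO. In lists this short a count near those shares says nothing particular about the list. Of 11 regulators of NRF2, 1 rose and 3 fell with isoproterenol without inhibitors (9.09% and 27.3%), and 3 rose and 2 fell with them (27.3% and 18.2%). Maff, a small MAF partner of NRF2, was at 109.5 ± 2.86 CPM in DMSO, 335 ± 11.6 in ISO, 106 ± 15.9 in Lip and 341 ± 68.1 in Lip+ISO (mean ± SD, n = 3), with log2 fold changes of 1.61 ± 0.13 and 1.69 ± 0.13 (edgeR, adjusted p = 3.0e-06 and 1.2e-06). Bach2, a repressor that competes with NRF2 for MAF partners, fell by 1.45 and 1.40 on the log2 scale (adjusted p = 0.00126 and 0.00109). Nfe2l1 (-0.45) and Nfe2l3 (-0.84), relatives of NRF2, fell for ISO against DMSO, and Nfe2l3 (-1.08) also with the inhibitors, where Cul3 (0.33), which ubiquitinates NRF2 together with KEAP1, and the repressor Bach1 (0.56) rose. Keap1 was higher by 0.44 ± 0.08 in Lip+ISO than in ISO (edgeR, adjusted p = 0.00382), as was Mafk (0.48 ± 0.13, adjusted p = 0.0326).

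Of 16 tested genes of glutathione supply and use, 4 rose and 0 fell with isoproterenol without inhibitors (25% higher, beside 12.3% of all genes), and 5 rose and 0 fell with them (31.2%, beside 11.5%); their median log2 fold changes were 0.31 and 0.41. Slc3a2, the heavy chain of the cystine transporter, was at 232 ± 8.77 CPM in DMSO, 634 ± 54.3 in ISO, 273 ± 15.3 in Lip and 706 ± 131 in Lip+ISO, with log2 fold changes of 1.45 ± 0.12 and 1.37 ± 0.12 (edgeR, adjusted p = 2.9e-06 and 2.7e-06). Chac1, which degrades glutathione, rose by 1.50 ± 0.20 and 0.92 ± 0.20 (adjusted p = 1.9e-04 and 0.00406). Cth, which makes cysteine from cystathionine, was at 12.3 ± 0.868 CPM in DMSO, 18.4 ± 0.700 in ISO, 10.4 ± 0.539 in Lip and 33.0 ± 1.89 in Lip+ISO. It rose by 0.58 ± 0.09 without inhibitors and by 1.67 ± 0.10 with them, and the difference of 1.09 ± 0.13 passed the test (edgeR, adjusted p = 0.0015). Esd, which acts on a glutathione adduct of formaldehyde, rose in both comparisons (0.66 and 0.80), and the glyoxalase Hagh rose with the inhibitors (0.40).

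Of 15 genes of the thioredoxin, glutaredoxin and methionine sulfoxide repair systems, 3 rose and 2 fell without inhibitors (20% and 13.3%, beside 12.3% and 13.9% of all genes), and 4 rose and 3 fell with them (26.7% and 20%, beside 11.5% and 15.8%). Txnip, which binds and inhibits thioredoxin, was at 460.4 ± 28.9 CPM in DMSO and 229.8 ± 18.7 in ISO, and fell by 1.00 on the log2 scale without inhibitors and by 0.46 with them (edgeR, adjusted p = 1.9e-04 and 0.0212). Sesn1, a sestrin, fell by 1.07 and 1.61 (adjusted p = 2.2e-05 and 4.6e-07), while the thioredoxin-like Nxn (1.31 and 0.65) and Txnl1 (0.32 and 0.56) and the mitochondrial glutaredoxin Glrx5 (0.40 and 0.46) rose in both. Against ISO, Lip+ISO was higher for 3 of these genes, Msrb1 (0.47), Txndc17 (0.30) and Txnl1 (0.25), and lower for 0. Of 9 genes of NADPH supply, 0 passed without inhibitors and 1 rose with them (11.1%, beside 11.5% of all genes), Pgd (0.40 ± 0.12, edgeR adjusted p = 0.0249).

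Among 8 genes of heme and iron handling, 2 rose and 1 fell without inhibitors (25% and 12.5%) and 2 rose with them (25%). The ferritin light chain Ftl1 (0.52 and 0.51) and the transferrin receptor Tfrc (0.29 and 0.30) rose with isoproterenol without and with inhibitors, and the last enzyme of heme synthesis, Fech (-0.32), fell without them. Selenoprotein synthesis supplies the selenocysteine of thioredoxin reductases and of some, not all, glutathione peroxidases. Of its 8 tested genes, 3 fell without inhibitors (37.5%, beside 13.9% of all genes), Sepsecs (-0.70), Sephs1 (-0.37) and Sephs2 (-0.60). With the inhibitors 3 fell (37.5%, beside 15.8%), Sephs1 (-0.36), Sephs2 (-0.62) and Pstk (-0.52), while the selenium carrier Sepp1 rose (0.75). None of the genes in these lists passed for Lip against DMSO.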

How the data were processed

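RNA was sequenced from 12 cultures of floated epididymal white adipocytes, 3 in each of 4 groups (DMSO, ISO, Lip, Lip+ISO); per the study's methods the replicates came from independent experiments. The authors deposited 1 table of raw counts per gene with RefSeq identifiers and mm9 coordinates: reads were aligned with STAR (version 2.4.2a, per the submitters' processing notes) and, per the study's methods, summarized with HOMER at 1 read per position and length and counted over genes with iRNA-seq. Where that limit applied, it would lower the counts of highly expressed short genes; the strand setting was not given in the sources used here. A figure legend of the study names another stimulus for these cells than the labels do, and the labels (ISO) were followed.

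Counts were tested with edgeR 4.0.16 in R 4.3.3 (filterByExpr, minimum count 10; TMM; quasi-likelihood F-test, two-sided, 1 mean per group over all 12 libraries) with Benjamini-Hochberg adjustment over 13543 genes and a call at an adjusted p of 0.05 or below, with no minimum fold. SE is the size of the log2 fold change divided by the square root of F. CPM values use TMM-scaled library totals, and values per length divide them by the counted length in the table. The biological coefficient of variation was 0.163. At totals of 22632220 to 43707557, 3 counts equal 0.0678 to 0.132 CPM. Deviations from group means over the 2000 most variable genes correlated for all 18 pairs of libraries with the same replicate number (r from 0.142 to 0.620; other pairs -0.546 to 0.250), so the numbers were taken to pair the libraries. Alternatives were DESeq2 1.42.0, library totals, RLE size factors, no filter, the replicate block, the compared groups alone, a log2 fold change of at least 1, and 15 fits leaving out libraries. The code was tested on simulated data.

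The genes, lists and promoter letters were chosen with earlier results of these data known, and the second element form (TGAGNNNGC) after promoter sequence had been read. Named genes were the 8 single genes, every member past the threshold, members that complete a family, and up to 4 called genes per list and comparison; Bach1, Hagh, and genes of the lists given in a second comparison beside their first were added after their values were seen. Promoter windows were matched by symbol; Gclc, Hmox1, Gsr, Prdx6, Prdx6b, Gsta4, Gstt2 and Sod3 had none. Amino acid sequences were not used here.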

Additional observations from a re-analysis of the deposited data

Results flagged for a closer look

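The response of Prdx2 to isoproterenol differed with and without lipase inhibitors by 0.50 on the log2 scale (edgeR test of the interaction, adjusted p = 0.0365). Prdx2 was higher in Lip+ISO than in Lip in 3 of 3 replicates, and also in ISO than in DMSO in 3 of 3, which does not bear on the difference. The call of the interaction was lost in 14 of the 15 fits that left out libraries (adjusted p up to 0.367), with library totals alone (0.0855) and with no filter on low counts (0.0581). It was kept by DESeq2, with RLE size factors and with the replicate block (edgeR, adjusted p = 0.0120). Over the fits that left out libraries the difference ranged from 0.41 to 0.58. The response of Cth, from the list of glutathione supply genes, differed by 1.09 (edgeR, adjusted p = 0.0015). Cth is outside the family, and how its call depends on the processing or on single libraries was not examined.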

How the results depend on the processing

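For the 4 genes called higher in both responses to isoproterenol (Gclc, Nfe2l2, Srxn1, Txnrd1) and for Hmox1 in ISO against DMSO, direction and call held under DESeq2, library totals, RLE size factors and no filter on low counts, and under leaving out libraries except for Txnrd1 in ISO against DMSO. Counts moved by over 1.5 times in these settings. With a log2 fold change of at least 1, higher and lower counts were 3 and 0 for ISO against DMSO, 3 and 0 for Lip+ISO against Lip, 0 higher for Lip+ISO against ISO and 0 for the interaction; fewer genes can pass by construction. With the replicate block they were 14 and 5, 13 higher, 5 and 2, and 2 higher, and the block, which pairs libraries, changed no other count or call than those given with the results. With the compared groups alone they were 12 and 2 for ISO against DMSO, 0 lower for Lip+ISO against Lip, and 1 and 0 for Lip+ISO against ISO. DESeq2 gave 5 higher for Lip+ISO against ISO and 2 for the interaction, library totals 2 lower for ISO against DMSO and 0 for the interaction, and no filter 0 for the interaction; apart from the smaller fits, the cause was not tested.

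Over the 15 fits that left out libraries, the counts were 4 to 6 higher and 0 to 4 lower for ISO against DMSO, 5 to 14 and 0 to 2 for Lip+ISO against Lip, 0 to 5 and 0 to 1 for Lip+ISO against ISO, and 0 to 1 each for the interaction. An arm left with 2 libraries or the loss of a replicate number in all groups used the spread shared by the groups.

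Reversed directions concerned values that passed no test, except in Lip+ISO against Lip, where Gsr passed without Lip+ISO replicate 1 and Hmox1 without Lip+ISO replicate 3. They were Gsr in Lip+ISO against Lip (0.012 with DESeq2 and with RLE), Nfe2l2 in Lip against DMSO (0.023 with library totals), Cat in Lip+ISO against ISO (0.000969 with DESeq2 and 0.000974 with RLE), Gclm there (-0.027 with the block), and in the interaction Nqo1 (0.021 with DESeq2 and 0.024 with RLE), Gclm (-0.024 with library totals, -0.047 with the block) and Cat (-0.039 with library totals). Leaving out libraries, the log2 values that changed sign ranged as follows. In ISO against DMSO, Gclm ranged from -0.0027 to 0.27. In Lip+ISO against Lip, Cat ranged from -0.092 to 0.32, Gclm from -0.30 to 0.50, Gsr from -0.37 to 0.18 and Hmox1 from -0.00076 to 0.80. In Lip against DMSO, Cat ranged from -0.20 to 0.093, Gclm from -0.13 to 0.21, Hmox1 from -0.23 to 0.023 and Nfe2l2 from -0.059 to 0.049. In Lip+ISO against ISO, Cat ranged from -0.26 to 0.15, Gclm from -0.43 to 0.37, Gsr from -0.18 to 0.37, Nqo1 from -0.46 to 0.84 and Srxn1 from -0.23 to 0.23. In the interaction, Cat ranged from -0.22 to 0.20, Gclm from -0.46 to 0.34, Gsr from -0.26 to 0.29, Nqo1 from -0.88 to 0.43 and Srxn1 from -0.43 to 0.041. With 3 libraries a group, the counts above 2000 per library for the main genes leave the spread between libraries, not counting error, as the limit.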
